A study of Rattus norvegicus with 30 samples.

Results

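The CpG locus at 13.5 Mb of rat chromosome 1 comprised every cytosine measured between positions 13490000 and 13570000 of the rn5 genome. The deposited ratios come as a set of calls made for the age comparison (age calls) and another made for impairment (impairment calls). In the age calls the locus held 949 of 85484 CpG sites, 557 of 266960 CHG sites and 1181 of 707223 CHH sites, where H stands for any base but G. In the impairment calls, which set aged impaired (AI) beside aged unimpaired (AU) rats, it held 867 of 80903 CpG, 512 of 256337 CHG and 1083 of 687718 CHH sites. The locus was chosen by the lower CpG ratios of aged than young rats, with its split by rat identifier also known. The contrasts of aged with young rats and of the series are therefore given as descriptions, without a test of the locus means. Counts from tests of single sites on these contrasts restate the choice, and nothing is read from them. The study annotated CpGs of the locus to introns of AABR06000596.1 and LOC100909555.

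Whole genome bisulfite sequencing was applied to the medial prefrontal cortex (mPFC, prelimbic and infralimbic regions) of 30 male Fischer 344 rats. The 10 young rats were 5 to 6 months old and the 20 aged rats 17 to 22 months old, and the labels name no drug and no engineered allele. The aged rats had been split at their mean score on a set shifting task, which measures cognitive flexibility, into 9 AI and 11 AU rats. By their numbers, the identifiers of the rats form 3 series that the labels do not explain. Series A (1918 to 1936) holds 11 aged and 3 young rats, series B (2173 to 2191) 8 aged and 3 young rats, and series C (121412 to 121448) 1 aged rat, which is AU, and 4 young rats. Series A has 5 AI and 6 AU rats and series B has 4 AI and 4 AU rats.

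In mammals a methyl group is placed on the cytosine of most CpG dinucleotides, on both strands, and is copied to the new strand when a cell divides. Dense groups of CpGs are often found at promoters and in repeated or ribosomal sequence, and their methylation accompanies silencing. Methylation outside CpGs is rare in most tissues and more common in neurons. The DNA methylation ratio used here is the share of reads at a cytosine that were protected from bisulfite, from 0 for none to 1 for all. A ratio was called from a minimum of 5 reads, where 1 read shifts it by 0.2, and the depth behind a single ratio is otherwise unknown from these values. The mPFC was measured as bulk tissue, so a partly methylated site in every cell and a mixture of methylated and unmethylated cells cannot be told apart.

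The locus was dense in CpGs and partly methylated. CpGs made up 35.3% of its cytosines against 8.07% of all cytosines in the same calls. Its CpGs averaged 0.478 in aged rats against 0.578 in young rats, compared with 0.709 in both age groups over all CpGs. A mean ratio between 0.1 and 0.9 was found at 99.2% of the locus CpGs in aged and 96.5% in young rats, against 79.1% and 77.6% of all CpGs. The locus was also read in more rats than most sites. At its CpGs the median number of rats read was 17 aged and 8 young, against 11 and 5 over all CpGs, and 279 of the 949 (29.4%) had a value in all 30 rats, against 7.49% of all CpGs.

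The measured CpGs extended from 13498445 to 13564533, with no other measured CpG close on either side. The nearest measured CpG before them lay 217650 bp away at 13280795, with a ratio of 0.902 ± 0.123 (SD, n = 13) in aged rats against 0.870 ± 0.116 (SD, n = 3) in young rats. The nearest after them lay 185439 bp away at 13749972, with 0.876 ± 0.160 (SD, n = 6) in aged rats against 0.90 ± 0.149 (SD, n = 5) in young rats. The first CpG inside had a ratio of 0.667 ± 0.167 (SD, n = 3) in aged rats against 0.438 ± 0.384 (SD, n = 3) in young rats. The last inside had 0.439 ± 0.158 (SD, n = 6) in aged rats against 0.445 ± 0.327 (SD, n = 4) in young rats. Both inner borders were read in few rats, and all 4 of their means were below those of the CpGs outside.

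Inside the locus the CpGs fell into 15 runs, a run being a stretch of CpGs with gaps under 1000 bp. Of these, 6 held at least 20 CpGs each and together 915 CpGs, or 96.4% of the locus. Runs 1 to 4 held 772 CpGs within the first 11280 bp. Run 1 (chr1:13498445-13498642) had 25 CpGs, run 2 (chr1:13499715-13501274) had 149, run 3 (chr1:13503185-13506828) had 559 and run 4 (chr1:13509440-13509724) had 39. The other long runs lay near the far end, run 13 (chr1:13555974-13556290) with 54 CpGs and run 14 (chr1:13560878-13561215) with 89. Run 3 alone held most of the CpGs of the locus, so values averaged over the locus are mainly values of run 3. The listed CpGs of AABR06000596.1 are in run 3 and those of LOC100909555 in run 13.

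CpGs measured at neighbouring positions, as the cytosine and the guanine partner of a CpG on opposite strands would be, gave like ratios when averaged over rats. Over 214 such isolated pairs of positions the mean ratio of one partner followed that of the other with Pearson's r of 0.816, across pairs that share libraries and fragments and are not independent replicates. The median absolute difference between the mean ratios of partners was 0.0524. Within a rat it was larger, 0.122 over 4623 pairs of ratios. On the first partner aged rats of series A had a mean of 0.440, aged rats of series B 0.573 and young rats 0.586. On the second partner the values were 0.423, 0.539 and 0.563, in the same order. On both partners every aged rat of series A lay below every aged rat of series B.

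The first comparison was that of aged with young rats. The mean ratio over the locus CpGs was 0.485 ± 0.0630 (SD, n = 20) in aged rats, with a lowest value of 0.393, a median of 0.471 and a highest of 0.575. In young rats it was 0.569 ± 0.0223 (SD, n = 10), from 0.540 through a median of 0.561 to 0.605. The aged mean was lower by 0.0839, and 13 of the 20 aged rats were under the lowest young rat. The other aged rats were within the young range, so the groups overlapped. The SD of the aged rats was larger than that of the young rats, and this spread followed the identifier series, as the plot of the locus mean by rat shows.

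**Figure D1:**
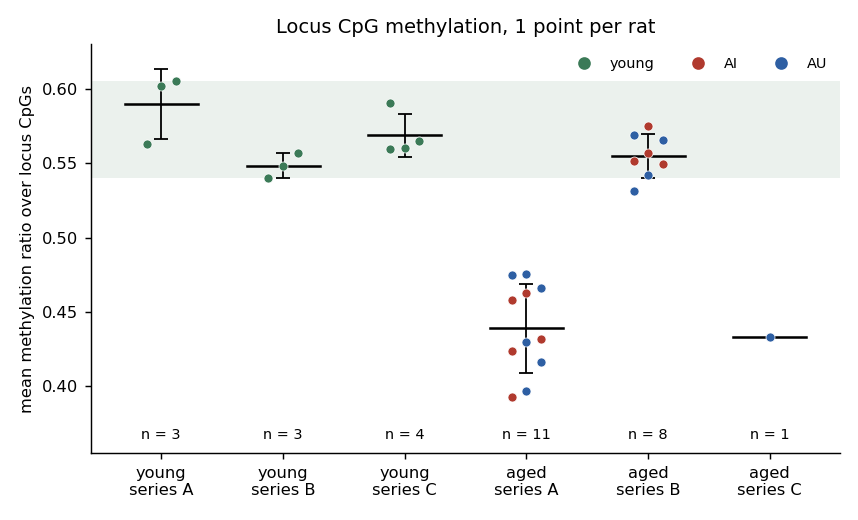
Mean methylation ratio over the CpGs of the locus (vertical axis, ratio from 0 to 1, axis not starting at 0), with 1 point per rat by age and identifier series, AI and AU rats coloured, black lines for the group mean and bars for the SD. The shaded band is the range of the 10 young rats; all 11 aged rats of series A and the aged rat of series C lie below it, while 7 of the 8 aged rats of series B lie inside it.

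At single CpGs, aged rats had the lower mean at 836 of the 949 locus CpGs, a share of 88.1% against 50% of all CpGs. A 2-sided test with unequal variances on the ratios of each site, as the study used and approximate at these group sizes, gave an unadjusted p under 0.05 at 349 locus CpGs, which is 36.8% of them, against a background of 6.13% of the 85483 CpGs tested in the series. Aged rats were lower at 347 of the 349, against 3.72% of all CpGs called in that direction. After Benjamini-Hochberg adjustment over all CpGs tested, 6 locus CpGs (0.632%) passed, all lower in aged rats, against 0.069% of all CpGs, and limma's moderated test left 1. The rule that chose the locus used this contrast, so these counts describe the choice and nothing is read from them. The median difference over locus CpGs was a ratio of -0.10, against 0.00 over all CpGs.

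The counts by run are of the same contrast, which chose the locus, so nothing is read from them either. They are given beside the same background of 6.13%. In run 3, which holds 559 of the 949 CpGs, 272 (48.7%) passed the unadjusted threshold, all lower in aged rats, with a median difference of -0.12. In run 2, 48 of 149 CpGs (32.2%) passed and in run 14, 22 of 89 (24.7%). The shares of run 1 with 1 of 25 (4%), run 4 with 3 of 39 (7.69%) and run 13 with 2 of 54 (3.70%) lay near the background. The 9 short runs together held 34 CpGs. Of the short runs with 5 or more CpGs, run 5 averaged 0.804 in aged rats against 0.719 in young rats, run 6 averaged 0.767 against 0.692, and run 12 averaged 0.373 against 0.396.

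The next comparison set the identifier series against each other among aged rats, as a description, because this split was known when the locus was chosen. Aged rats of series A had a locus mean of 0.439 ± 0.0300 (SD, n = 11), from 0.393 through a median of 0.432 to 0.475. Aged rats of series B had 0.555 ± 0.0146 (SD, n = 8), from 0.531 through 0.554 to 0.575. The aged rat of series C had 0.433, within the range of series A. No aged rat of series A reached any aged rat of series B, and the gap between the nearest of them was 0.0557. The difference of series B minus series A was 0.116. Among AU rats alone the difference was 0.108 and among AI rats alone 0.124, with series B higher in both.

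At single CpGs series B was higher at 680 of 741 locus CpGs that could be tested among aged rats, 91.8% against 50.3% of all CpGs. The same test called 346 of them at an unadjusted p under 0.05, 46.7% against a background of 8.84% of 42276 CpGs, and 345 of these were higher in series B, against 5.84% of all CpGs. After Benjamini-Hochberg adjustment 67 locus CpGs passed, 9.04% of those tested against 0.849% of all CpGs. These counts, too, restate the split that was known, and nothing is read from them. The median difference over locus CpGs was 0.14, against 0.00 over all CpGs. Over 16 bins of 500 bp with at least 10 CpGs each, aged rats of series A were lower than those of series B in all 16, by 0.0669 to 0.279.

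Among young rats the mean of series A was the higher one. Young rats of series A had locus means of 0.602, 0.563 and 0.605, those of series B 0.540, 0.548 and 0.557, and those of series C 0.590, 0.565, 0.560 and 0.560. Over all locus CpGs every young rat of series A was above every young rat of series B, and series B minus series A was -0.0416. Over the CpGs with a value in all 30 rats they overlapped, with 0.578, 0.540 and 0.583 in series A and 0.521, 0.539 and 0.560 in series B. Over CpGs with a value in each of these 6 young rats the difference was -0.0267, and with each ratio taken relative to the mean of its site it was -0.0224.

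Within series A, aged rats were lower than young rats by 0.151, with means of 0.439 and 0.590, and no aged rat reached a young one. Within series B, aged rats had a mean of 0.555 and young rats 0.548, a difference of 0.00666 in the other direction. The age difference of series A minus that of series B was -0.157, given without a test because it rests on the values that chose the locus. At single CpGs, the test of each site called 375 of 705 locus CpGs within series A, all lower in aged rats, against a background of 7.76% of all CpGs and 4.95% in that direction. Within series B it called 21 of 396 locus CpGs, 5.3% against a background of 5.56%, with aged rats lower at 9 and higher at 12. The counts are of the contrast that chose the locus, and nothing is read from them.

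The runs did not all follow the same pattern across the series. In run 3 the mean ratio was 0.490 ± 0.0334 (SD, n = 11) in aged rats of series A and 0.618 ± 0.0154 (SD, n = 8) in those of series B. Young rats of series A were at 0.700, 0.662 and 0.700, those of series B at 0.591, 0.603 and 0.616, and those of series C at 0.648, 0.626, 0.657 and 0.620. All 11 aged rats of series A were below every young rat in run 3, and all 3 young rats of series A were above every aged rat of their series. In run 2 the aged means were 0.398 in series A and 0.486 in series B, and the young means 0.563 and 0.508. There, too, the 3 young rats of series A were above every aged rat of series A, and 8 of the 11 aged rats were below every young rat. In run 4 the aged means were 0.268 and 0.448 and the young means 0.403 and 0.380, with more overlap between rats.

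Run 13, which holds the listed CpGs of LOC100909555, separated the series in both age groups. Aged rats of series A had a mean of 0.227 ± 0.0844 (SD, n = 11), from 0.117 to 0.392, and aged rats of series B 0.506 ± 0.0448 (SD, n = 8), from 0.439 to 0.588. Young rats of series A had 0.205, 0.124 and 0.295, those of series B 0.561, 0.537 and 0.303, and those of series C 0.470, 0.504, 0.583 and 0.494. The 3 young rats of series A were thus below every other young rat and among the aged rats of their series, the opposite of run 3. Within series A aged rats were higher than young rats by 0.0187 in run 13, which is smaller than the SD of either group. The direction depended on the CpGs read. Over the 3 CpGs of run 13 with a value in every rat, series A had 0.237 in aged and 0.280 in young rats. At the 14 CpGs of run 13 that could be tested within series A, the median difference of aged minus young rats was -0.0255. Series B exceeded series A by 0.279 in aged and 0.259 in young rats. No test was made on the means of single runs, since the runs were delimited on these sites with the values at hand.

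In run 14 the pattern lay between these. Aged rats of series A had 0.253 ± 0.0324 (SD, n = 11) and of series B 0.419 ± 0.0489 (SD, n = 8), without overlap. Young rats of series A had 0.336, 0.272 and 0.343, below every other young rat, whose values ran from 0.369 to 0.490. Series B exceeded series A by 0.166 in aged and 0.106 in young rats. In run 1, with 7 aged rats of series A and 8 of series B read, the aged means were 0.291 and 0.360, and the rats overlapped.

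**Figure D2:**
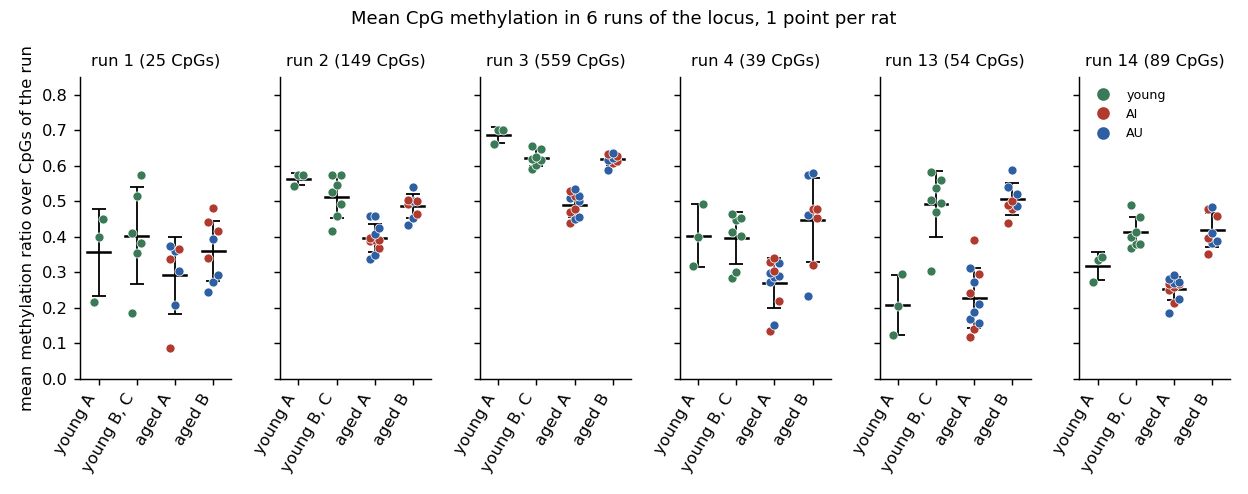
Mean methylation ratio over the CpGs of each of the 6 long runs (vertical axis, ratio), 1 point per rat, for young rats of series A, young rats of series B and C, and aged rats of series A and B; black lines are means and bars SDs, and the aged rat of series C is not drawn. Young rats of series A are the highest group in runs 2 and 3 and sit with the aged rats of series A in run 13.

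The same order appeared along the sequence. In all 12 bins of 500 bp in runs 2 to 4, aged rats of series A had a lower mean than young rats of series A. The plot of methylation by distance shows the ratio of each group rising from run 1 toward run 3 and falling again at run 4 and at the far end, in every group, while aged rats of series A stay below those of series B in the bins shown. Of the places with fewer CpGs, aged rats of series A had the higher mean in a bin of 6 CpGs in run 3, with 0.605 against 0.452, and in the short runs 5, 8, 10, 11 and 12. These runs held 5, 3, 2, 1 and 9 CpGs, with means of 0.811, 0.561, 0.713, 0.60 and 0.412 in series A against 0.784, 0.541, 0.570, 0.368 and 0.332 in series B.

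**Figure D3:**
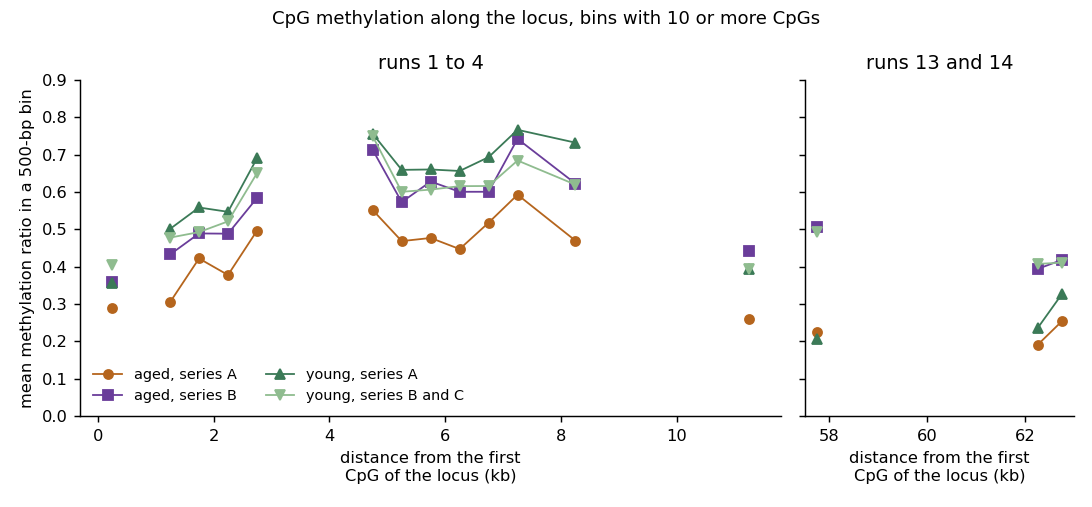
Mean methylation ratio in bins of 500 bp with at least 10 CpGs (vertical axis) against distance from the first CpG of the locus in kb (horizontal axis, split between runs 1 to 4 and runs 13 and 14), for aged rats of series A and B and young rats of series A and of series B and C. Aged rats of series A lie below aged rats of series B in all 16 bins, and young rats of series A drop to the level of the aged rats of series A in run 13.

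The number of CpGs with a value differed between the series. In aged rats, 80.9% ± 7.36 (SD, n = 11) of the locus CpGs had a value in series A and 69.0% ± 13.1 (SD, n = 8) in series B. In young rats it was 88.5% ± 6.0 (SD, n = 3) in series A and 63.7% ± 15.0 (SD, n = 3) in series B. Series A had thus more CpGs with a value at both ages, with the lower locus mean in aged rats and the higher in young rats. Elsewhere in the genome aged rats had values at a median of 56110 CpGs in series A and 34872 in series B. The mean ratio over CpGs outside the locus was 0.701 ± 0.00252 (SD, n = 11) in series A and 0.702 ± 0.00389 (SD, n = 8) in series B, a difference below the SD of either series. Over CpGs with a value in all 19 of these rats the series difference was 0.135. The part of the number of CpGs read in the series difference was not tested.

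Within a series the locus mean was set beside the number of CpGs read and the overall level, in 4 relations. In the 11 aged rats of series A, its Pearson's r with the number of CpGs read elsewhere was 0.272 (permutation test, p = 0.415) and Spearman's rho was 0.391 (p = 0.237). With the mean ratio elsewhere r was 0.20 (permutation test, p = 0.550) and rho 0.264 (p = 0.433). In the 8 aged rats of series B, r was 0.0759 with the number of CpGs (exact permutation test, p = 0.854) and rho was 0.0952 (p = 0.840). With the mean ratio elsewhere r was 0.520 (exact permutation test, p = 0.191) and rho 0.50 (p = 0.216). Without the 2 rats farthest from the median, these r were 0.405, 0.305, 0.367 and 0.132. The adjusted p for r was 0.734 or more in each, which with 11 and 8 rats does not show that the measures are unrelated.

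Single CpGs read in most rats show what the averages rest on. Among the 509 locus CpGs with a value in at least 80% of the rats of each age group, the 5 with the largest deficit in aged rats were in runs 2 and 3. At 13503570 in run 3, which was read in every rat, the ratio was 0.643 ± 0.140 (SD, n = 20) in aged rats against 0.870 ± 0.0730 (SD, n = 10) in young rats. Aged rats of series A had a mean of 0.598 there and those of series B 0.708. At 13499786 in run 2 it was 0.321 ± 0.177 (SD, n = 20) in aged rats against 0.548 ± 0.0998 (SD, n = 9) in young rats, with 0.272 in aged rats of series A and 0.407 in those of series B. The other 3 CpGs, 13503321, 13503330 and 13504689, had aged means of 0.554, 0.595 and 0.503 and young means of 0.822, 0.829 and 0.758. Aged rats of series A had 0.482 and 0.546 at the first and second of these, against 0.738 and 0.697 in series B. At 13504689 both series had an aged mean of 0.507, below the young mean.

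The 5 CpGs with the largest excess in aged rats showed smaller differences. At 13505037 in run 3 the ratio was 0.654 ± 0.208 (SD, n = 16) in aged rats against 0.555 ± 0.261 (SD, n = 8) in young rats. At 13504159 it was 0.460 ± 0.204 (SD, n = 19) in aged rats against 0.365 ± 0.159 (SD, n = 9) in young rats, and 2 bp before, at 13504157, 0.331 ± 0.152 (SD, n = 19) and 0.248 ± 0.160 (SD, n = 9). At 13513055 in run 5 it was 0.712 ± 0.0695 (SD, n = 20) in aged rats against 0.651 ± 0.0815 (SD, n = 10) in young rats. At 13509543 in run 4 it was 0.256 ± 0.225 (SD, n = 16) and 0.196 ± 0.0989 (SD, n = 8), and aged rats of series A had 0.110 there against 0.493 in series B. All 5 differences were smaller than 1 SD of the aged rats.

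The 4 CpGs of AABR06000596.1 that the study listed for age were read in few rats. At 13505239 the ratio was 0.542 ± 0.276 (SD, n = 9) in aged rats against 0.798 ± 0.0880 (SD, n = 4) in young rats. At 13505401 it was 0.359 ± 0.209 (SD, n = 12) and 0.681 ± 0.0636 (SD, n = 3), at 13506494 0.527 ± 0.143 (SD, n = 11) and 0.828 ± 0.119 (SD, n = 3), and at 13506654 0.554 ± 0.180 (SD, n = 13) and 0.857 ± 0.207 (SD, n = 5). At 13505239 and 13506494 no aged rat of series B had a value. At 13505401 the aged rats had means of 0.365 in series A (n = 9) and 0.20 in series B (n = 2), and at 13506654 means of 0.511 (n = 10) and 0.713 (n = 2). These CpGs were listed by the study from the same rats, so their direction is not independent evidence.

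The question of the impairment comparison was whether methylation differed between aged rats that shifted readily and those that did not, a contrast other than the one that chose the locus, made on the same ratios of the aged rats. The locus mean in the impairment calls was 0.490 ± 0.0689 (SD, n = 9) in AI rats, from 0.394 through a median of 0.463 to 0.573. In AU rats it was 0.484 ± 0.0602 (SD, n = 11), from 0.403 through 0.476 to 0.572. The groups overlapped over nearly their whole range. The difference of AI minus AU was 0.00619 (exact permutation test, 2-sided, p = 0.832, adjusted p = 0.832 over 3 tests of locus means), far below the SD of either group. Within series A the means were 0.434 in 5 AI and 0.446 in 6 AU rats, so that AI minus AU was -0.0119 (exact permutation test, p = 0.519). Within series B they were 0.559 and 0.552, a difference of 0.00686 (exact permutation test, p = 0.543, 4 against 4 rats), and with the permutation kept inside the series p was 0.704.

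At single CpGs, the same test as for age gave an unadjusted p under 0.05 between AI and AU rats at 28 of 867 locus CpGs. This is 3.23%, against a background of 4.1% of 80901 CpGs. AI rats were lower at 10 of them, 1.15% against 2.01% of all CpGs, and higher at 18, 2.08% in both sets. None passed after Benjamini-Hochberg adjustment, against 0.00865% of all CpGs. With limma 38 locus CpGs had an unadjusted p under 0.05, against a background of 5.51%, and none passed adjustment either. With the series as a covariate in limma they numbered 56 of 867, a share slightly above the background of 5.82%. None passed adjustment in that fit. The median difference over locus CpGs was 0.01. Within series A, 30 of 755 locus CpGs passed the unadjusted threshold against a background of 4.09%, and within series B 22 of 488 against 3.64%.

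Differences between AI and AU rats were ranked among the 492 locus CpGs with a value in at least 80% of each group. Among them, the CpGs that differed most were mostly in run 3, in both directions. Over all tested locus CpGs the differences ran from -0.282 to 0.50, at sites read in fewer rats. At 13503490 the ratio was 0.600 ± 0.0874 (SD, n = 8) in AI and 0.842 ± 0.114 (SD, n = 10) in AU rats (exact permutation test, p = 0.000206), which did not hold over all CpGs (adjusted p = 0.536 by the unequal-variance test with Benjamini-Hochberg adjustment). Only 18 bp before, at 13503472, the order was reversed, with 0.722 ± 0.135 (SD, n = 9) in AI and 0.492 ± 0.148 (SD, n = 11) in AU rats (adjusted p = 1 by the same test). AI rats were also higher at 13503432, with 0.691 against 0.528, at 13503481, with 0.566 against 0.410, at 13503326, with 0.587 against 0.408, and at 13504637, with 0.534 against 0.355. They were lower at 13503784, with 0.525 against 0.693, at 13504141, with 0.473 against 0.612, at 13504145, with 0.252 against 0.413, and at 13556020 in run 13, with 0.257 against 0.421. None of these 10 CpGs passed the adjustment over all CpGs.

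The CpGs listed by the study for impairment were read in 10 to 12 of the 20 aged rats. The study listed them by correlation of methylation with the task score and with RNA levels in aged rats. The AI against AU comparison is another measure, on sites chosen in the same rats, so it is not an independent test of the listing. At 13506637 in AABR06000596.1 the ratio was 0.707 ± 0.172 (SD, n = 6) in AI and 0.498 ± 0.204 (SD, n = 6) in AU rats (exact permutation test, p = 0.0823). In LOC100909555 it was 0.460 ± 0.297 (SD, n = 4) in AI and 0.338 ± 0.210 (SD, n = 8) in AU rats at 13555978 (exact permutation test, p = 0.424). At 13556131 it was 0.679 ± 0.283 (SD, n = 5) and 0.517 ± 0.411 (SD, n = 5) (exact permutation test, p = 0.492). By series, the aged rats read at 13556131 had a mean of 0.10 in series A (n = 2) and 0.797 in series B (n = 7). The groups overlapped at all 3 CpGs.

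Methylation outside CpGs was low at the locus. All CHG sites of the locus averaged 0.0173 in aged rats against 0.0198 in young rats, where CHG sites of the whole series averaged 0.0228 and 0.0227. All its CHH sites averaged 0.00789 and 0.00871, where those of the whole series averaged 0.0168 and 0.0170. A mean ratio over 0.1 in at least one age group was found at 27 of 557 CHG and 8 of 1181 CHH sites, which is 4.85% and 0.677%, against 5.48% and 3.99% in the whole series. Of the 5 CHG sites with the highest mean among those read in at least 80% of the rats, 4 lay within 5 bp of a CpG. CHG 13500335 had a ratio of 0.192 ± 0.146 (SD, n = 16) in aged rats against 0.214 ± 0.146 (SD, n = 10) in young rats and lay 3 bp from a CpG of run 2, and its neighbour CHH 13500336 had 0.230 ± 0.161 (SD, n = 18) and 0.218 ± 0.133 (SD, n = 10). In run 14, CHG 13561009 had 0.145 ± 0.0761 (SD, n = 20) in aged rats against 0.205 ± 0.0417 (SD, n = 10) in young rats, 1 bp from a CpG. CHG 13561188, also 1 bp from a CpG, had 0.136 ± 0.0895 (SD, n = 20) and 0.101 ± 0.0503 (SD, n = 10). CHG 13503730 in run 3 had 0.120 and 0.135. The next CHH sites, 13512972, 13523567, 13500415 and 13556104, had aged means of 0.106, 0.0874, 0.0491 and 0.0836.

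A few non-CpG sites had ratios at or near 0 in one group and at or near 1 in another. These need to be read with the set of calls they come from. At CHG 13523709 all 6 young rats with a value had a ratio of 1, while the 20 aged rats had 0.0176 ± 0.0406. At CHH 13528561 the 3 young rats with a value averaged 0.944. The 8 AI and 10 AU rats with a value had 0 there in both sets of calls. At CHG 13523809 the 7 young rats had 0, the 10 AU rats 1 and the 5 AI rats 0.943 in the age calls. In the impairment calls the same site had a ratio of 0 in all 4 AI rats and 1 in all 10 AU rats, so that the AI rats changed from nearly 1 to 0 between the sets of calls. It was the only one of 500 shared CHG sites of the locus where any ratio differed between the sets, and no ratio differed at its 855 shared CpGs or 1052 shared CHH sites. Group means more than 0.9 apart were found between AI and AU rats at 1 of 512 CHG sites of the locus, against 0.0492% of all CHG sites. Between aged and young rats they were found at 2 of 557 CHG sites of the locus, against 0.11%. For CHH sites the aged and young means were that far apart at 1 of 1181, against 0.0956%. Nothing is read from counts this small.

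The CHG comparison of AI with AU rats rested on that site. Over the 23 CHG sites with a mean over 0.1 in either group, AI rats had a mean of 0.126 ± 0.0346 (SD, n = 9) and AU rats 0.181 ± 0.0303 (SD, n = 11). The difference was -0.0549 (exact permutation test, 2-sided, p = 0.0012, adjusted p = 0.00359). Without CHG 13523809 it was -0.00239 (exact permutation test, p = 0.863), with means of 0.129 and 0.131 over 22 sites, and in the age calls it was -0.0218 (exact permutation test, p = 0.0695). Both alternatives were chosen after the values were seen. None of the 22 CHG sites that could be tested singly passed an unadjusted p under 0.05 with the unequal-variance test, against a background of 6.23%. For CHH, the means over 8 sites were 0.157 ± 0.0746 (SD, n = 9) in AI and 0.124 ± 0.0636 (SD, n = 11) in AU rats, a difference of 0.0327 (exact permutation test, 2-sided, p = 0.304, adjusted p = 0.456). The CHH difference depended on the series, with -0.0203 without series A and 0.0727 without series B (exact permutation test, p = 0.0442).

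**Figure D4:**
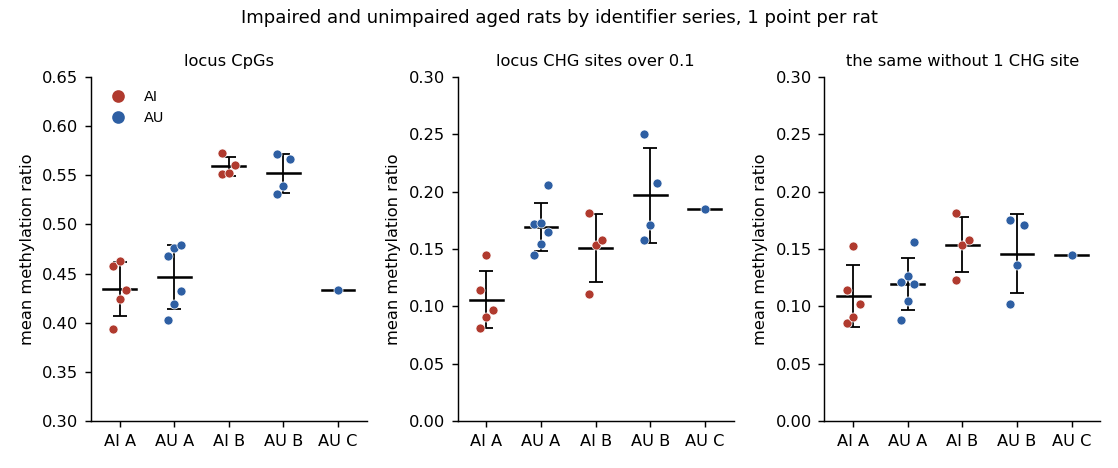
Mean methylation ratio per aged rat (vertical axes, ratio; the left axis does not start at 0) in AI and AU rats of series A, B and C, over the locus CpGs, over the CHG sites of the locus with a mean over 0.1, and over the same CHG sites without CHG 13523809; lines are means and bars SDs. AI and AU rats overlap within series A and within series B for CpGs, series C having a single AU rat, and the lower CHG mean of AI rats, 0.126 against 0.181, is not seen once that site is left out, with 0.129 against 0.131.

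Other CpG-dense windows of the genome were compared with the locus in the same aged rats, as windows of 80000 bp with at least 100 CpGs. Of 89 such windows, 7 had every aged rat of series A below every aged rat of series B, the 2 that hold the CpGs of this locus among them. The 4 windows outside the locus with the largest deficit in aged rats are given as descriptions, since the split was known for the locus. The window of the 5S_rRNA genes on chromosome 19 (chr19:67045557-67048792) had means of 0.0680 in aged rats of series A, 0.436 in those of series B and 0.445 in young rats. Its series difference was 0.367, against 0.116 at the locus. A window on chromosome 14 (chr14:46806313-46864417) had 0.370, 0.482 and 0.474, a series difference of 0.112. In both windows every aged rat of series A was below every aged rat of series B. A window on chromosome 6 (chr6:39242248-39276021) had 0.251, 0.369 and 0.404, with a series difference of 0.117, but there the aged rats overlapped, with a highest value of 0.320 in series A and a lowest of 0.268 in series B. Its young rats differed more by series than its aged rats, with 0.303 in series A and 0.477 in series B. A window on chromosome 7 (chr7:100082050-100117997) had 0.435 in aged rats of series A, 0.585 in the 7 of series B with a value and 0.557 in young rats. Its aged rats overlapped as well, and its young rats had 0.475 in series A and 0.650 in series B.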

How the data were processed

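Bisulfite libraries of the mPFC of 30 rats were sequenced from both ends. The authors trimmed reads with Trimmomatic, filtered unconverted bases with cscall, which can lower ratios at methylated non-CpG sites, aligned to rn5 with BSMAP and called cytosines with at least 5 reads in a rat and at least 3 rats per group. The versions are not given in the sources used here. The deposited values are fractions from 0 to 1, the methylation ratio of each rat and site, unscaled and without read numbers, so the depth and precision of a single ratio are unknown from these files, and no interval is given.

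Means per rat were taken over the locus sites and compared by exact permutation tests, adjusted over the 3 tests of AI against AU rats. Tests planned for the series means are not given, since the split was known when the locus was chosen. Welch's test with unequal variances, 2-sided, was run at every site of the whole table with at least 3 rats per group and adjusted by Benjamini-Hochberg over all of it. CHG and CHH sites entered where a group mean was over 0.1. Task scores were not used here, so impairment was analysed as AI against AU rats. CpGs were named if listed by the study, among the 5 with the largest difference in each direction between aged and young rats or the 5 between AI and AU rats, with values in at least 80% of each group, past the adjusted threshold for impairment, or next to a border. Non-CpG sites were named if among the 5 with the highest mean in each context with values in at least 80% of rats. The members, lists and comparisons were chosen with earlier results of these data known. Alternatives were limma on ratios, on logit ratios (offset 0.05) and with a covariate for the series, other site filters, medians, complete sites and leaving out rats or series, some of them chosen after seeing the data. Scripts were tested on simulated data. Replicate numbers only name rats, and the identifier series served as a possible batch. Gene names are those of the study, and no rn5 sequence was used here. Python 3.11.15, scipy 1.17.1, R 4.3.3 and limma 3.58.1 were used.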

Additional observations from a re-analysis of the deposited data

Results flagged for a closer look

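The age difference of the locus was not alike in the identifier series. It was -0.151 in series A and 0.00666 in series B, and these were apart by -0.157. The locus was chosen with this split known and on these values, so no p-value is given and the difference was not tested independently. All 11 aged rats of series A were lower than the 3 young rats of series A, and 7 of the 8 aged rats of series B lay within the range of the young rats, with 1 below it. What the series stand for is not in the labels, and its part in the result was not tested.

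In run 1, the AI rat numbered 1 had a mean ratio of 0.0850 over 14 of 25 CpGs, while the other 6 AI rats with a value ran from 0.339 to 0.481. Its distance from the next rat was large for a group of 7. This was the only such case among 37 groups and measures examined, and chance gives about 1 in 20.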

How the results depend on the processing

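Of 118 alternative settings, 96 left a tested value with its direction and side of the threshold, a value without a test within 1 SD, or a count of CpGs within 1.5 times. Many of these settings belong to the age and series contrasts, which were known when the locus was chosen. The series values were sorted by the planned tests that are not given here. The tally is therefore no support for those contrasts. The series difference in aged rats stayed between 0.108 and 0.135 and the distance between the age differences of the series between -0.191 and -0.150. The series difference in young rats fell from -0.0416 to -0.0267 over complete sites and -0.0224 with site-centred ratios. The age difference of the locus moved to -0.151 within series A and changed sign to 0.00666 within series B. CpGs past the unadjusted threshold for age numbered 349 of 949. Without series A they numbered 37 of 749 (4.94%, against 4.58% of all CpGs), without series B 510 of 894 (57% against 6.62%), without series C 226 of 859 (26.3% against 6.39%), and with a value in all 30 rats 151 of 279 (54.1% against 9.6%). For series B against series A they numbered 346 of 741, but 214 of 319 with a value in all 19 rats (67.1% against 15.5%), a setting added after the data were seen. For AI against AU rats they numbered 28 of 867, but 56 of 867 by limma with the series as covariate, against 5.82% of all CpGs, and 8 of 319 with a value in all 20 rats (2.51% against 4.01%).

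The AI minus AU difference of locus CpGs was -0.010 without series B and 0.0307 without series A (exact permutation test, p = 0.381), and ran from -0.00418 to 0.0182 on leaving out each rat, never past the threshold. That of CHG sites was -0.0238 over complete sites (p = 0.308), -0.0437 without series A (p = 0.0794), -0.00239 without CHG 13523809 and -0.0218 in the other calls, none past the threshold by exact permutation tests. It stayed past it at -0.00288 with no filter on level (p = 0.0246), -0.0360 with site-centred ratios (p = 0.0485) and -0.0657 without series B (p = 0.00126), by the same tests, all with that site included. That of CHH sites was -1.99e-05 with no filter on level, -0.0203 without series A and 0.0727 without series B (p = 0.0442, exact permutation test), the last past the threshold. The cause of these moves was not tested. Values for CHG and CHH sites over 0.2 and for CHH over complete sites could not be computed because some rats had no value. No paired analysis was possible because replicate numbers only name the rats. The unknown depth per ratio limits single sites, and 3 young rats per series limit the age comparison within series.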
